A study of Gallus gallus with 24 samples.

Results

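The genes described here were higher in the mesoderm of the chick midgut than in that of the hindgut, and were also lower in midgut given Hoxd13. There are 58 of them among the 17136 genes of the deposited table. Levels were compared as log2(CPM + 1), where CPM is the count scaled to 1000000 counts of a library. The members were chosen by these measured levels. A member had a mean at least 0.5 lower in hindgut than in midgut and at least 0.4 lower in Hoxd13 midguts 1, 2 and 3 than in midgut. Each of those 7 libraries also had to lie below each of the 4 midgut libraries. Hoxd13 midgut 4 was not used to choose the members.

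Messenger RNA was sequenced from intestinal mesoderm dissected from chick embryos, with the endoderm removed by hand. The Hoxd13 midgut received RCAS-Hoxd13, and the control hindgut and control midgut, called hindgut and midgut, are labelled RCAS-mGFP. RCAS is a retroviral vector that replicates in avian cells, and mGFP is the fluorescent control insert. Per the labels, the constructs were electroporated in ovo at stage HH 17 into the layer of lateral plate mesoderm that forms the gut wall, at the level of the midgut, and eggs were kept at 38 °C. How much of the tissue carried either virus is not given in the sources used here. Each group had 4 libraries. The labels give the ages of embryonic day 12 and day 14, but the 2 tables held the same 205632 values, so they were read as 12 libraries whose age is not known.

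The midgut forms the small intestine and the hindgut forms the large intestine. Their mesoderm gives rise to the smooth muscle and connective tissue of the gut wall and signals to the epithelium that lines it. Hox genes encode transcription factors that mark positions along the body axis, and Hoxd13 is normally active in the hindmost gut mesoderm. In chick, forced expression of Hoxd13 in midgut mesoderm is known to give the midgut epithelium features of the hindgut.

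The files name genes only by Ensembl ID, and 0 of these IDs matched the gene table of 25635 rows that was available. No member can therefore be given a symbol, a role or a sequence here, and neither the labelled tissue nor the misexpressed gene could be checked by markers. In this bulk tissue, fewer cells of a type and less RNA per cell cannot be told apart.

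Library totals ran from 7607185 to 10880695 counts. Hoxd13 midgut 4 stood apart in the measures given here. It had counts in 13480 genes against 14565 to 14832 in the other libraries. Its top 100 genes by abundance held 34.0% of its counts, where the others had 21.7% to 24.1%. Across all 12931 genes that passed the filter on low counts, its median difference from midgut was -0.24, and it was -0.04 after TMM scaling, which corrects totals for a few abundant genes. For Hoxd13 midguts 1 to 3 the same median was 0.15, and 0.03 after TMM scaling. ENSGALG00000032039 was at 2049, 3064, 4134 and 6129 CPM in Hoxd13 midguts 1 to 4, at 21.5 to 59.0 CPM in the hindguts and at 0 to 0.834 CPM in the midguts. Whether this ID is the misexpressed gene could not be checked.

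As a set, the members had low values in every Hoxd13 midgut and every hindgut library. Their mean log2(CPM + 1) was 3.87, 3.60, 3.17 and 2.41 in Hoxd13 midguts 1 to 4. It was 3.25, 3.19, 2.92 and 3.30 in hindguts 1 to 4, and 4.61, 4.53, 4.56 and 4.58 in midguts 1 to 4. The midguts thus lay close together, the hindguts spread more, and the Hoxd13 midguts spread most, with library 4 below all hindguts. Over all genes that passed the filter, the mean level was 4.23 in Hoxd13 midgut 4 and 4.61 to 4.78 in the other libraries. Summed over the members, expression was 1519 ± 561 CPM in Hoxd13 midgut and 1343 ± 193 CPM in hindgut, against 3900 ± 229 CPM in midgut (SD, n = 4 each). Because the rule chose these genes for being low in hindgut and in Hoxd13 midguts 1 to 3, those differences carry no test.

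**Figure D1:**
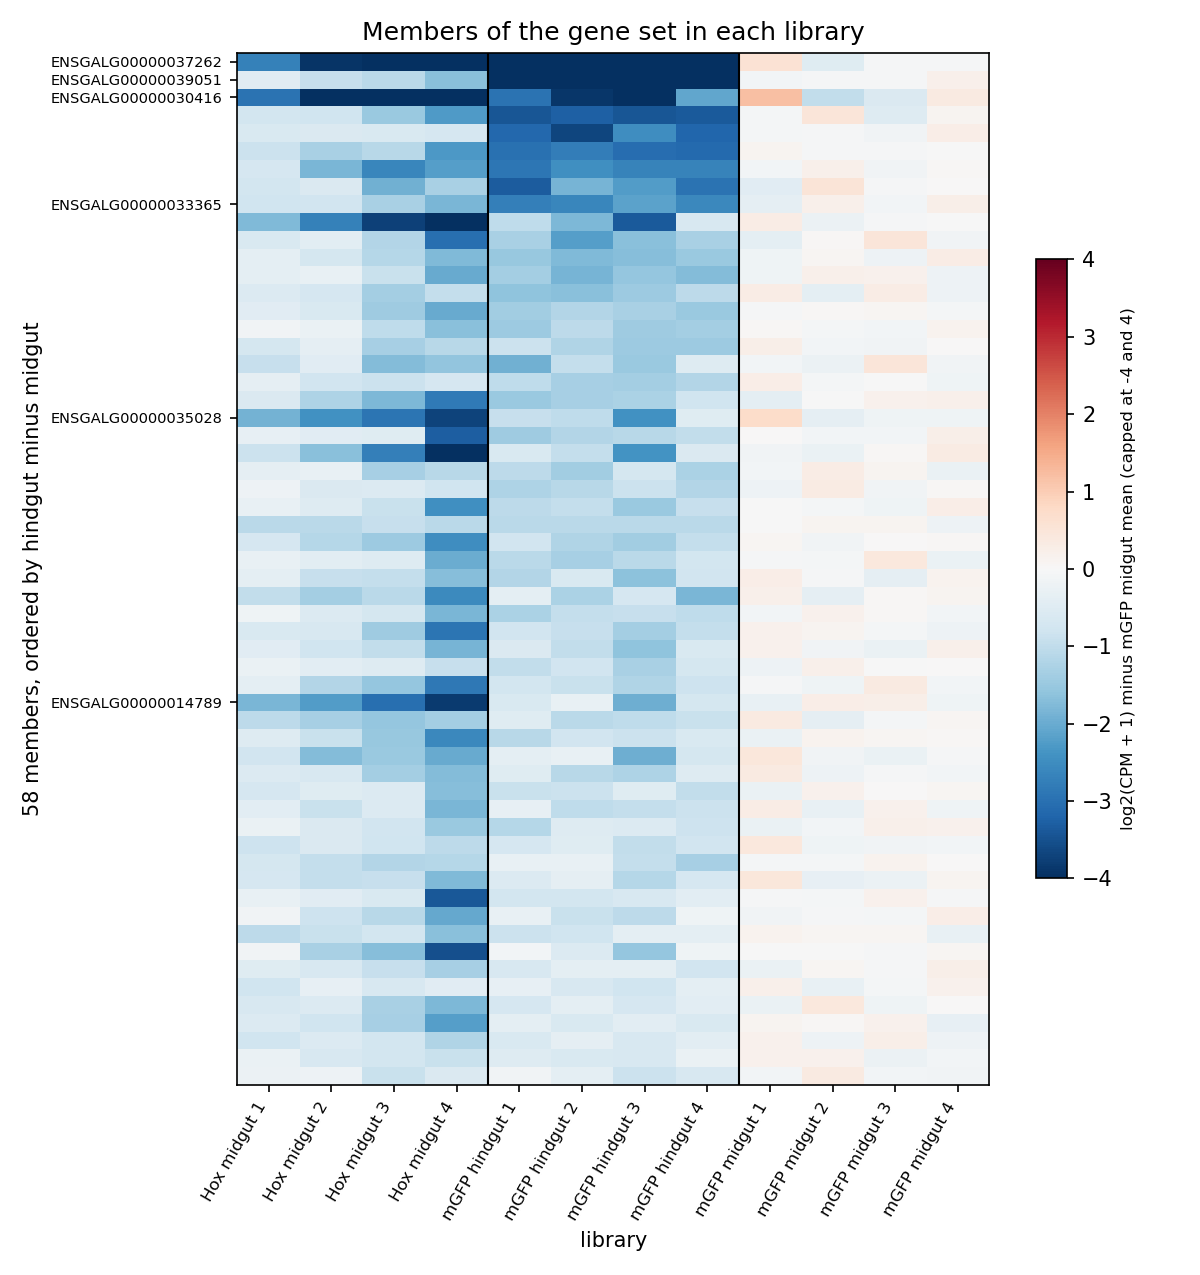
Level of each of the 58 members (rows, ordered by hindgut minus midgut) in each library (columns), as log2(CPM + 1) minus the mean of the 4 mGFP midguts, capped at -4 and 4. The 6 members described by library in the text are labelled. Hox midgut 4 is darker than Hox midguts 1 to 3 in most rows, and it is the lowest of the Hox midguts in 46 members.

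The members differed widely in abundance. Mean CPM in midgut ran from 0.752 to 620 with a median of 20.2, where 9 members reached 100 CPM, 31 lay from 10 to 100 CPM and 18 lay below 10 CPM. The median over members of the group mean was 9.77 CPM in Hoxd13 midgut and 7.04 CPM in hindgut. The 2 most abundant members made up 19.4% to 21.8% of the summed member CPM in the Hoxd13 midguts and 6.50% to 12.5% in the hindguts, against 26.7% to 28.1% in the midguts. The other 56 members summed to 676 to 1729 CPM in the Hoxd13 midguts and 960 to 1448 CPM in the hindguts, against 2693 to 3046 CPM in the midguts. Counts were 0 in all 4 hindguts for 2 members and in Hoxd13 midgut 4 for 4 members, and no member was at 0 in a midgut.

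The sizes of the differences also varied. Hindgut minus midgut had a median of -1.05 over the members, from -8.35 to -0.50, and 32 members were lower by at least 1 on the log2 scale. Hoxd13 midguts 1 to 3 minus midgut had a median of -0.83, from -4.48 to -0.41, and 19 members were lower by at least 1. Both differences reached this size in 14 members. The drop in Hoxd13 midguts 1 to 3 was larger than the drop in hindgut in 24 members and smaller in 34. As a share of the hindgut drop it had a median of 81.9%, with a lowest value of 17.8% and a highest of 265%. The lowest was that of ENSGALG00000039051, which had 0 counts in every hindgut, so its share depends on the 1 added to CPM. The rule's limits of 0.5 and 0.4 also bound the drops behind these shares. These are differences of means and carry no test.

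**Figure D2:**
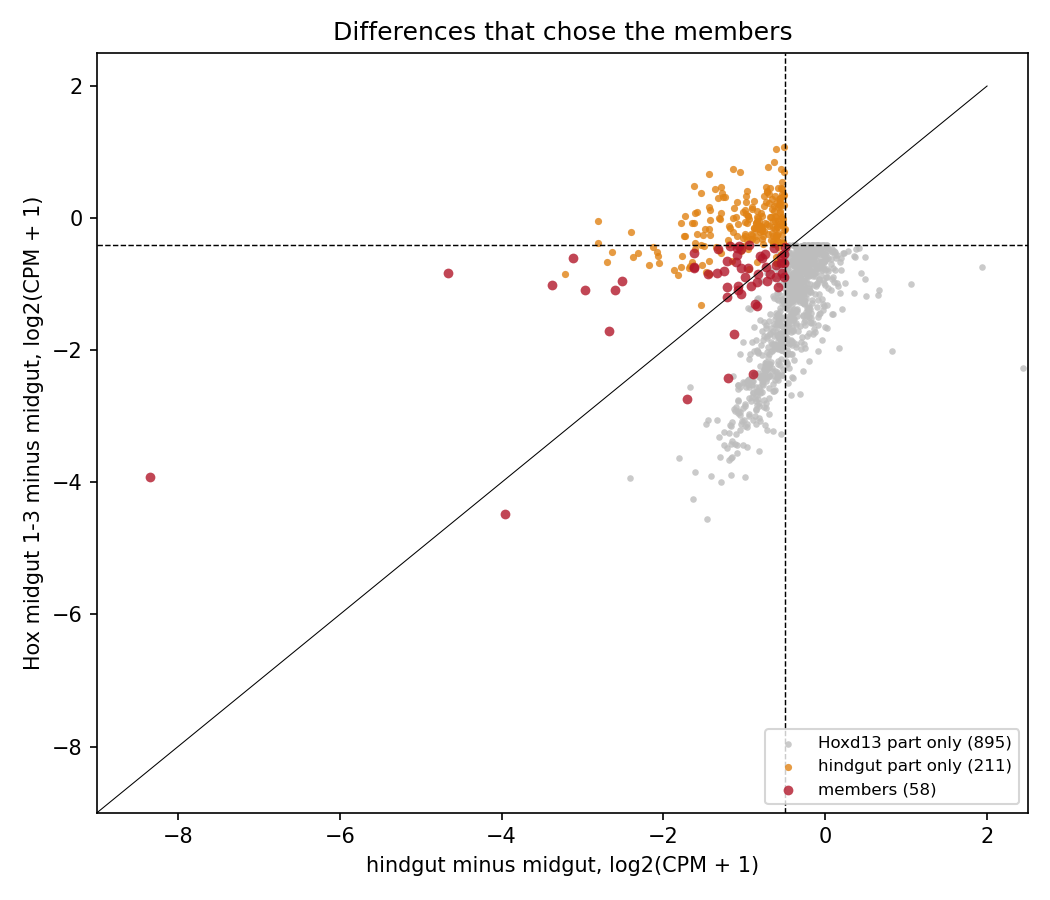
Hindgut minus midgut (x axis) against Hox midguts 1 to 3 minus midgut (y axis), both in log2(CPM + 1), for the 58 members, the 211 genes that met only the hindgut part of the rule and the 895 that met only the Hoxd13 part. Dashed lines mark -0.5 and -0.4, and the solid line marks equal differences: 24 members lie below it and 34 above it.

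The members made up 21.6% of the 269 genes that met the hindgut part of the rule and 6.09% of the 953 that met the Hoxd13 part. The size limits decided membership for some genes. Just inside the hindgut limit were ENSGALG00000010792 and ENSGALG00000009399, at -0.505 and -0.503. ENSGALG00000008506 at -0.499 and ENSGALG00000031839 at -0.493 fell outside it. For Hoxd13 the members nearest the limit were ENSGALG00000017044 at -0.42 and ENSGALG00000033351 at -0.41, and the genes just outside were ENSGALG00000037619 at -0.37 and ENSGALG00000028908 at -0.37. In all, 123 genes had both hindgut and Hoxd13 midguts 1 to 3 below every midgut, which held for each condition alone in 3.24% of all genes for hindgut and 6.59% for Hoxd13. The remaining genes of the 123 were short of a size limit.

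ENSGALG00000037262 had the largest hindgut drop of the members and the second largest Hoxd13 drop. It was at 64.0, 27.1, 11.05 and 1.31 CPM in Hoxd13 midguts 1 to 4, at 0.558, 0, 0 and 0.853 CPM in hindguts 1 to 4, and at 634, 301, 407 and 415 CPM in midguts 1 to 4. The 3 groups did not overlap, and the Hoxd13 midguts lay between the others, with library 4 close to the hindguts. Hindgut minus midgut was -8.35 and Hoxd13 midguts 1 to 3 minus midgut was -3.92.

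ENSGALG00000039051 had no counts in any hindgut. Its level was 17.5, 12.3, 10.9 and 6.97 CPM in Hoxd13 midguts 1 to 4, against 22.4, 23.8, 23.4 and 28.5 CPM in midguts 1 to 4. It stayed clearly present in every Hoxd13 midgut, with a difference from midgut of -0.83 in libraries 1 to 3. A total of 3 counts over the 4 hindguts, taken as the floor, would be 0.0748 CPM, so the midgut mean was at least 328-fold above hindgut.

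ENSGALG00000030416 had the largest Hoxd13 drop of the members, larger than its hindgut drop. It was at 23.4, 8.48, 1.59 and 0.789 CPM in Hoxd13 midguts 1 to 4, at 23.5, 11.6, 0.574 and 43.5 CPM in hindguts 1 to 4, and at 430, 95.1, 124 and 241 CPM in midguts 1 to 4. Hoxd13 midgut and hindgut overlapped and each spread widely, while every midgut was above both. The differences from midgut were -4.48 in Hoxd13 midguts 1 to 3 and -3.95 in hindgut.

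ENSGALG00000033365 was the most abundant member. Its level was 353, 358, 250 and 172 CPM in Hoxd13 midguts 1 to 4, 91.9, 98.7, 138 and 102 CPM in hindguts 1 to 4, and 479, 711, 572 and 717 CPM in midguts 1 to 4. All Hoxd13 midguts lay between the hindguts and the midguts, without overlap. The differences from midgut were -0.95 in Hoxd13 midguts 1 to 3 and -2.51 in hindgut.

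Another pair of members had its lowest mean in Hoxd13 midgut. ENSGALG00000014789 was at 19.7, 14.7, 8.18 and 4.21 CPM in Hoxd13 midguts 1 to 4, at 48.0, 58.6, 18.2 and 44.1 CPM in hindguts 1 to 4, and at 58.6, 87.5, 85.4 and 64.7 CPM in midguts 1 to 4. Only hindgut 3 was below a Hoxd13 midgut, and hindgut 2 lay just below the lowest midgut. ENSGALG00000035028 was at 3.43, 2.10, 1.17 and 0.263 CPM in Hoxd13 midguts 1 to 4, at 7.82, 7.24, 2.11 and 10.9 CPM in hindguts 1 to 4, and at 26.6, 11.9, 13.6 and 13.6 CPM in midguts 1 to 4. Here too hindgut 3 was the only hindgut below a Hoxd13 midgut.

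**Figure D3:**
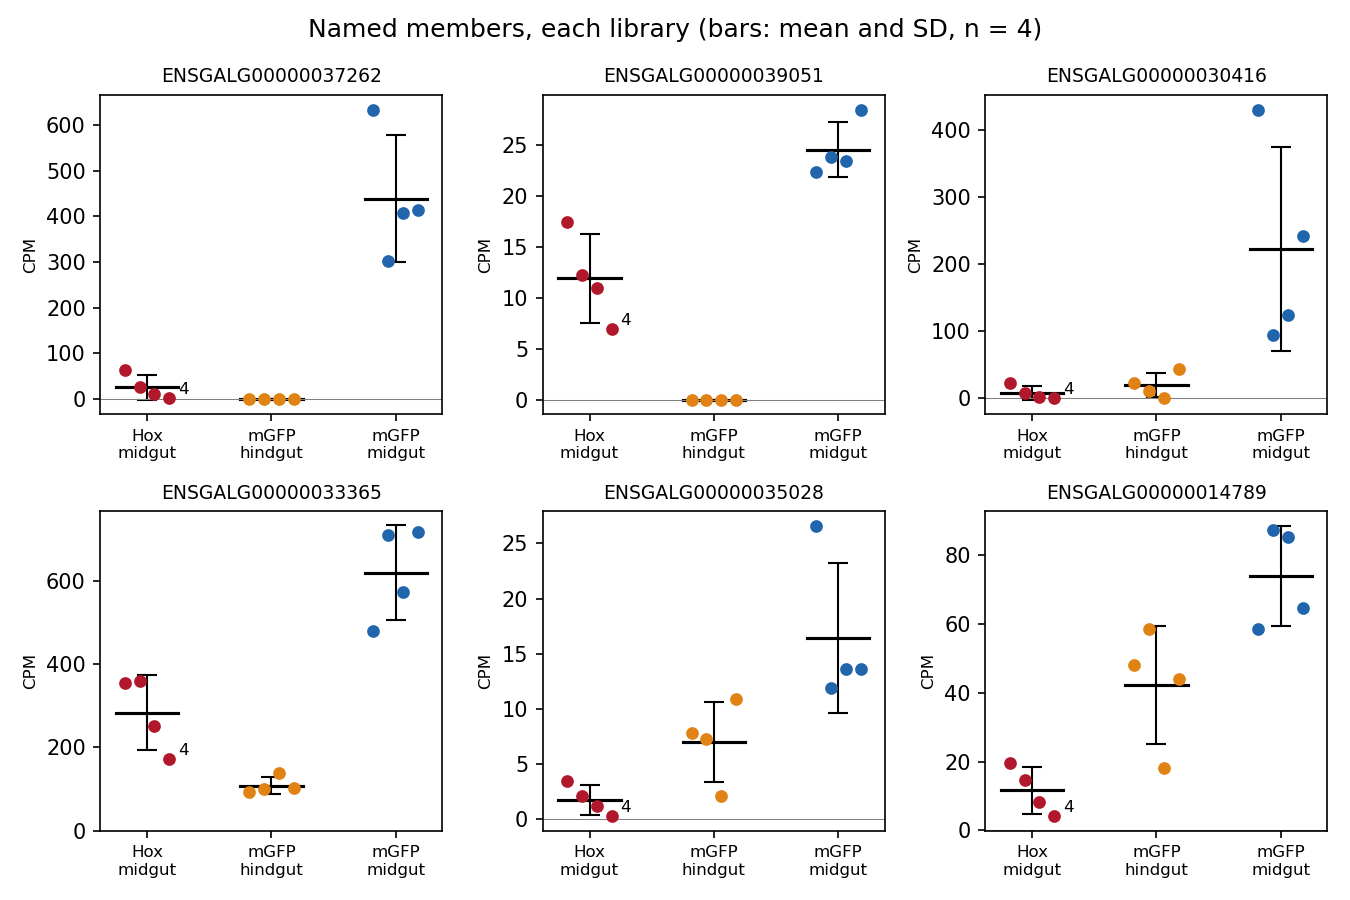
CPM of the 6 members described by library in the text, with Hox midgut left, mGFP hindgut in the middle and mGFP midgut right. Points are libraries, with Hox midgut 4 marked 4, and bars are mean and SD (n = 4). In ENSGALG00000037262, ENSGALG00000039051 and ENSGALG00000033365 every Hox midgut is above every hindgut, and in ENSGALG00000030416 those groups overlap.

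Hoxd13 midgut 4, which the rule did not use, was below every midgut in 58 of the 58 members, as it was in 49.4% of all genes that passed the filter. After TMM scaling the counts were again 58 of 58, against 42.9% of those genes. Its difference from midgut had a median of -1.82 over the members, from -7.52 to -0.46, against -0.24 over all genes that passed the filter. Of the 211 genes that met only the hindgut part of the rule, 63.5% had Hoxd13 midgut 4 below every midgut, with a median difference of -0.64. Of the 895 genes that met only the Hoxd13 part, 98.9% did, with a median of -2.93. The members' median lay between those of both these classes. The same 4 midguts chose the members and are the comparison here, so genes with high midgut values by chance are favoured, and with 1 library there is no test.

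The members were also lower in Hoxd13 midgut 4 than in the other Hoxd13 midguts. The median difference from Hoxd13 midguts 1 to 3 was -1.06 over the members and -0.38 over all genes that passed the filter. In 46 members (79.3%) library 4 was below each of the other Hoxd13 midguts, against 57.8% of those genes. In 0 members it was above each of them, against 23.4%. This was not particular to the members. Of the 895 genes that met only the Hoxd13 part of the rule, 93.7% had library 4 below each of the others, with a median difference of -1.79. Of the 211 that met only the hindgut part, 61.1% did, with a median of -0.54. The small number of genes with counts and the large share of abundant genes in this library move with these values, and their part in them was not tested.

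**Figure D4:**
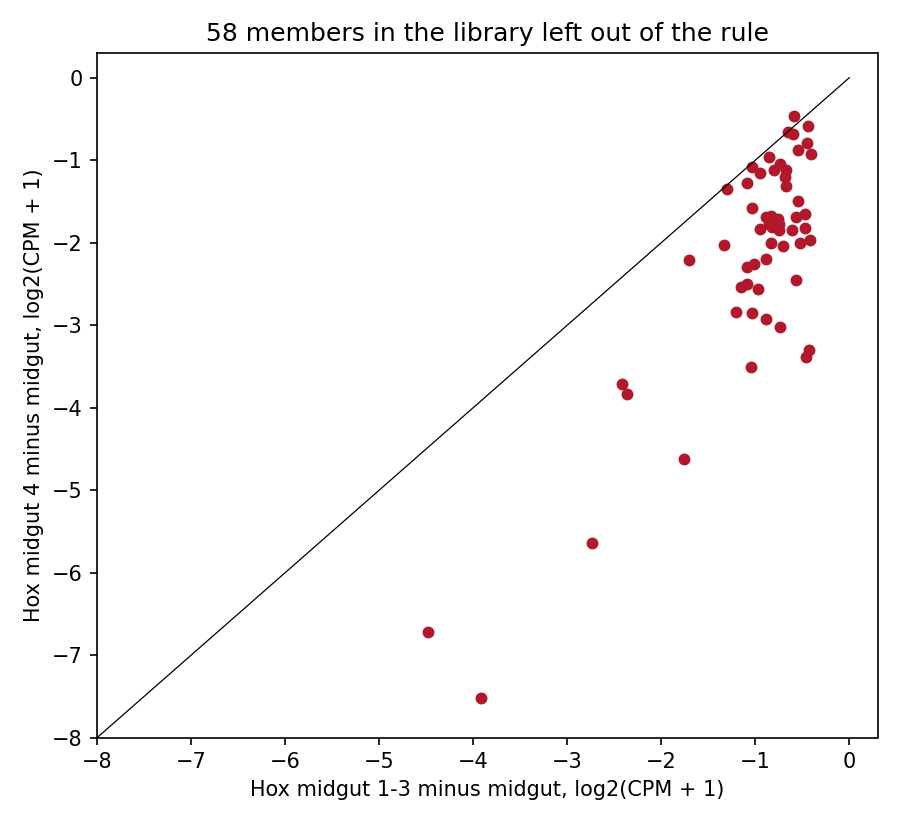
Hox midguts 1 to 3 minus midgut (x axis) against Hox midgut 4 minus midgut (y axis) for the 58 members, in log2(CPM + 1), with the line of equal differences. All points lie below 0 on the y axis, from -7.52 to -0.46, and most lie below the line.

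Hoxd13 midguts 1 to 4 were not alike in the members. Hoxd13 midgut 1 was the highest of the 4 in 42 members, as it was in 32.2% of all genes that passed the filter. Library 2 was the highest in 14 members (21.6% of those genes), library 3 in 2 (22.8%) and library 4 in 0 (23.4%). In 31 members the level had the order library 1 above 2, 2 above 3 and 3 above 4, an order found in 17% of those genes. With libraries 1, 2 and 3 alone that order held in 36 members, against 21.1%. ENSGALG00000032039 was higher in each of these libraries in the opposite order, from 2049 to 6129 CPM, and the share of the top 100 genes was also higher, at 22.8%, 23.6%, 23.8% and 34.0%. These orders were noticed after the values were seen. The share of all genes that rise from library 1 to library 4 is not given here, so nothing is read from the order of ENSGALG00000032039. With 4 libraries the level of ENSGALG00000032039 and the library measures cannot be told apart.

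Set against hindgut, the Hoxd13 midguts differed by library. Library 1 was above every hindgut in 34 members (28.7% of all genes that passed the filter) and below every hindgut in 2 (13.9%). Library 2 was above in 26 (33.8%) and below in 6 (21.2%), and library 3 was above in 18 (36.0%) and below in 19 (26.1%). Library 4 was above in 11 (29.0%) and below in 38 (51.8%). The members' median difference from hindgut was accordingly 0.47, 0.19, -0.07 and -0.76 in libraries 1 to 4. Over all genes that passed the filter, the median difference from hindgut was 0.08 for the mean of libraries 1 to 3 and -0.30 for library 4. After TMM scaling library 4 was below every hindgut in 33 members, against 43.4% of those genes.

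The comparison of Hoxd13 midgut with hindgut asked how near the members came to their hindgut level. Of the 58 members, 55 passed the filter on low counts and were tested with edgeR's quasi-likelihood test over all 12931 such genes. At an adjusted p under 0.05, 8 members (14.5%) were higher in Hoxd13 midgut than in hindgut, where 1.94% of all tested genes were. A single member (1.82%) was lower, where 2.10% of all tested genes were. The median log2 fold change of the tested members was -0.0044, beside 0.0012 over all tested genes, and ENSGALG00000039051 stays the highest member at its bound, so the median there is the same. The rule used the hindgut libraries and 3 of the Hoxd13 midguts, so these counts are not independent of how the members were chosen. Without Hoxd13 midgut 4, 11 of 56 tested members were higher (2.44% of all tested genes) and 1 was lower (3.28%), and 7 of the 8 were among the 11. The libraries compared in that fit are all among those that chose the members, so nothing is read from its counts.

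In the 8 members called higher, hindgut minus midgut had a median of -3.04, from -8.35 to -1.10. In the 46 members that were tested and not called it had a median of -1.02, from -3.95 to -0.50, so the ranges overlapped. Hoxd13 midguts 1 to 3 minus midgut had a median of -0.98 in the 8 members and -0.81 in those not called. The hindgut libraries enter both the hindgut drop and this comparison, so the drops are given as a description. ENSGALG00000037262 had a log2 fold change (Hoxd13 midgut over hindgut) of 6.08 with an SE of 1.11 (edgeR adjusted p = 0.0126, from 0.00489 to 0.069 over 15 alternatives with edgeR; DESeq2 adjusted p = 1.43e-05). ENSGALG00000033365 was higher by 1.38 with an SE of 0.19 (edgeR adjusted p = 0.00189, called in 16 of 16 alternatives). For ENSGALG00000039051 the Hoxd13 midgut mean of 11.9 ± 4.34 CPM (SD, n = 4) was at least 159-fold above the floor of 3 counts over the 4 hindguts (edgeR adjusted p = 1.51e-05). The other 5 were ENSGALG00000033144, ENSGALG00000013372, ENSGALG00000040320, ENSGALG00000002318 and ENSGALG00000002170, named after their values were seen, with log2 fold changes from 0.58 to 3.61.

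ENSGALG00000014789 was the one member called lower, at 11.7 ± 6.88 CPM in Hoxd13 midgut and 42.2 ± 17.2 CPM in hindgut (SD, n = 4 each). Its log2 fold change was -1.90 with an SE of 0.41 (edgeR adjusted p = 0.0267). The call depended on single libraries: the edgeR adjusted p was 0.0731, 0.072 and 0.0757 when hindgut 1, 2 or 4 was left out, 0.0761 when Hoxd13 midgut 3 was, and it ran from 0.00796 to 0.11 over 15 alternatives with edgeR (DESeq2 adjusted p = 0.000158). ENSGALG00000035028 did not pass the test, at -2.04 with an SE of 0.59 on the log2 scale (edgeR adjusted p = 0.0658, from 0.0293 to 0.182 over 15 alternatives with edgeR). It passed with DESeq2 (adjusted p = 0.00676), without Hoxd13 midgut 1 (edgeR adjusted p = 0.0316) and without hindgut 3 (edgeR adjusted p = 0.0293). For ENSGALG00000030416 it was -1.30 with an SE of 1.05 (edgeR adjusted p = 0.39), within the wide spread of both groups. The 46 members not called had log2 fold changes from -2.04 to 2.03 and were not shown to match their hindgut level.

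**Figure D5:**
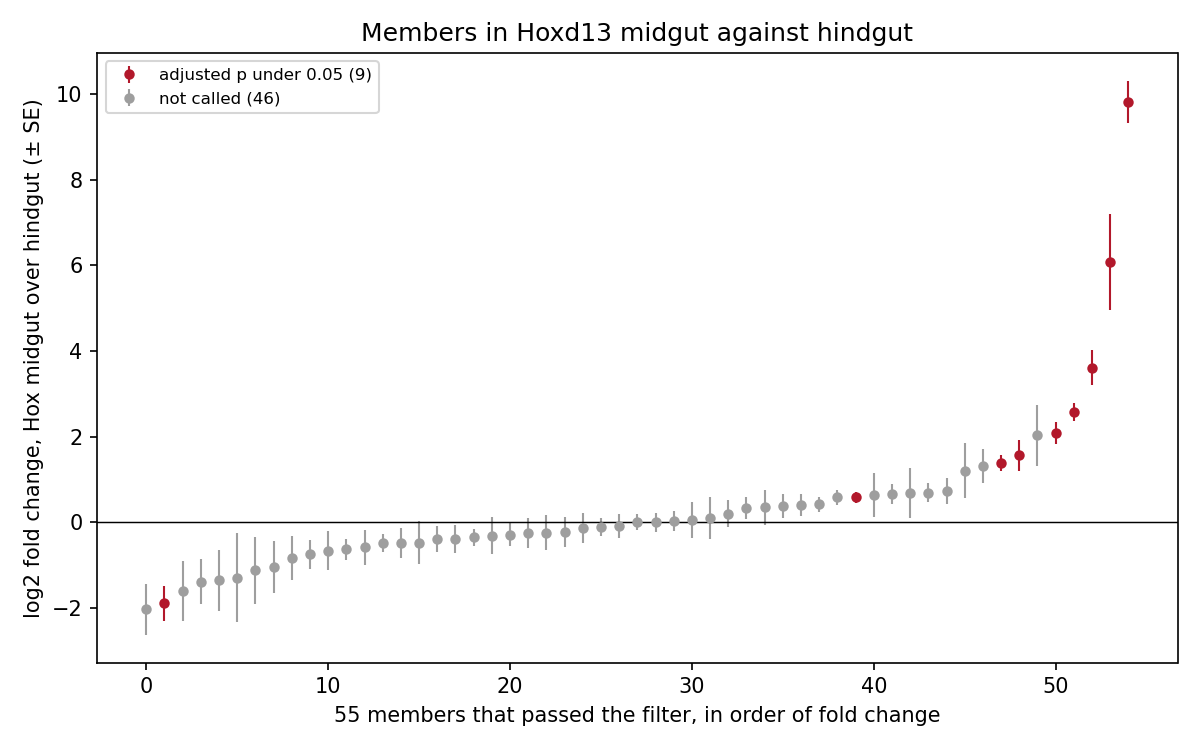
Log2 fold change of Hox midgut over hindgut with its SE (y axis) for the 55 members that passed the filter, in order of fold change (x axis). The 9 members at an edgeR adjusted p under 0.05 are red, 8 above 0 and 1 below, and the fitted value of the highest, ENSGALG00000039051, is no bound because its hindgut counts are all 0.

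All 4 Hoxd13 midguts lay above every hindgut in 8 members (13.8%), where 9.13% of all tested genes did, and 7 of these were among the 8 called higher. They lay below every hindgut in 0 members, where 5.89% of all tested genes did. In the other 50 members the groups overlapped. Within Hoxd13 midguts 1 to 3 the median SD of log2(CPM + 1) was 0.35 over the members and 0.20 over all tested genes. In hindgut it was 0.27 over the members and 0.21 over all tested genes, and in midgut 0.23 and 0.20.

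In the comparisons that chose the members, the same fit called 29 of the 55 tested members lower in Hoxd13 midgut than in midgut (3.89% of all tested genes) and 22 lower in hindgut than in midgut (1.06%). These counts follow from the choice of members and nothing is read from them. Both comparisons share the midgut libraries. The Hoxd13 count was 3, 6, 3 and 3 without midgut 1, 2, 3 and 4, where 0.0612%, 0.397%, 0.0612% and 0.0459% of all tested genes were lower. It was 7 and 6 when hindgut 1 or 2 was left out, beside 0.184% and 0.138% of all tested genes. When Hoxd13 midgut 1, 2 or 3 was left out it was 47, 19 and 1, beside 10.9%, 1.79% and 0.023%. In these fits the calls over all genes moved with the members' calls. Without hindgut 3 or 4 the Hoxd13 count was 36 and 27, beside 5.78% and 2.83% of all tested genes. Without Hoxd13 midgut 4, 26 members were lower, beside 0.911% of all tested genes. The midguts and Hoxd13 midguts left in that fit are those that chose the members, so nothing is read from this count either. The hindgut count was 34 without Hoxd13 midgut 4 (2.07% of all tested genes), and 42 in a fit of the control libraries with the replicate number as a block, where 4.12% of all tested genes were lower. Hindgut and midgut libraries of the same number moved together, and within each of the 4 pairs all 58 members were lower in hindgut, as the rule requires, with a mean difference of -1.36, -1.35, -1.64 and -1.28 for numbers 1 to 4.

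The 3 members that did not pass the filter were ENSGALG00000010792, ENSGALG00000054818 and ENSGALG00000048530, named after their values were seen. Their group means were at most 0.208 CPM in Hoxd13 midgut and 0.303 CPM in hindgut, and 0.752 to 1.12 CPM in midgut. Each difference there rests on few counts.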

How the data were processed

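The authors deposited estimated counts per Ensembl gene as whole numbers. Per the submitters' processing notes, which state neither versions nor roles, Salmon, DESeq2 and the build GRCg6a were used, and libraries were stranded messenger RNA libraries, per the labels. No annotation release or filter is given in the sources used here. Rounding the estimated counts changed none of them, and totals were used as deposited.

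CPM used the column totals, with a pseudocount of 1. The test was that of edgeR 4.0.16 in R 4.3.3 (quasi-likelihood F test, robust, TMM, filterByExpr with a count minimum of 10), with the 3 groups in a single fit and Benjamini-Hochberg adjustment over 12931 genes. SEs were derived from the F statistic. The test was checked on simulated counts drawn with the same spread for every gene and with no library unlike its group. That check does not cover libraries such as Hoxd13 midgut 4. The alternatives were DESeq2 1.42.0, no filter, a fit of the compared groups, a replicate block and each library left out. TMM scaling, pseudocounts of 0.5 and 2, and a minimum of 1 CPM were tried for the rule.

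Members, lists and rules were chosen with earlier results of these data known. Gene lists and markers fixed by symbol could not be used, because no ID has a symbol. The IDs named by rule are the members with the 2 largest drops in hindgut, in Hoxd13 midguts 1 to 3 and in the smaller of both. The rule also named the 2 most abundant in midgut, the 2 highest and lowest in Hoxd13 midgut over hindgut, and the genes nearest each limit. ENSGALG00000032039 is not a member and was named outside this rule, as were the members said to be named after their values were seen.

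The labels do not say that replicates came from separate embryos, so the spread behind each p-value is only that among these samples and may be technical. Replicate libraries differed by at least 16.1 times the counting variance, so none was counted as a repeat. By that measure Hoxd13 midgut 4 lay 81.6 to 128 times from the other Hoxd13 midguts. Hindgut 3 also lay far from hindguts 1 and 4, at 90.7 and 110 times. The labels number replicates without saying what a number marks. Deviations from the group mean correlated across genes at 0.416 to 0.538 between hindgut and midgut of the same number. The numbers were therefore taken as pairs in the fit of the control libraries with a replicate block and in the same-number differences. The main fit, and the fits that left out a library, did not use the pairs. Deviations correlated at -0.441 to 0.206 between Hoxd13 midgut and hindgut, and at -0.262 to 0.190 between Hoxd13 midgut and midgut. Those numbers were not taken as pairs. Floors cover counting error only.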

Additional observations from a re-analysis of the deposited data

Results flagged for a closer look

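ENSGALG00000035028 was at 26.6 CPM in midgut 1, far above the 11.9 to 13.6 CPM of the other midguts. It was the only one of 24 sets of 4 values with a library this far from the rest. By chance about 1 in 20 sets would hold such a library, so 1 in 24 is near what chance gives.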

How the results depend on the processing

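The rule found 58 genes, and 89 with TMM-scaled CPM, of which 56 were among the 58. Pseudocounts, a minimum of 1 CPM and adding Hoxd13 midgut 4 moved the count by less than 1.5 times. Without single libraries the rule found 49 to 116 genes. Leaving out a library loosens the condition that groups do not overlap, and it also shifts the group means. The count fell to 49 without Hoxd13 midgut 3 and to 51 without hindgut 3. Hoxd13 midgut 4 was then below every remaining midgut in 87 of 88 genes without midgut 1 and 116 of 116 without midgut 2. It was so in 87 of 87 without midgut 3 and 73 of 75 without midgut 4. The share of all genes in these settings is not given here, so nothing is read from these counts. The count of members higher in Hoxd13 midgut than in hindgut (8) was 5 in a fit of the compared groups, where 50 members were tested, 12 with DESeq2, 7 with a replicate block, and 6 to 11 without single libraries. The 11 came without Hoxd13 midgut 4, where 2.44% of all tested genes were higher. The count lower (1) was 2 with DESeq2, 0 in the fit of the compared groups, 1 with a replicate block, and 0 to 5 without single libraries. The 5, of 56 tested members, came without Hoxd13 midgut 1, where 10.9% of all tested genes were lower. Where leaving out a library gave 0, 0.818% to 1.17% of all tested genes were lower. Shares for the other fits are not given here. The members' median log2 fold change was -0.16 to 0.10 without single libraries. None of the 6 members described by library changed sign in Hoxd13 midgut over hindgut in 16 alternatives. ENSGALG00000037262 lost its call in the fit of the compared groups (edgeR adjusted p = 0.069). Fits of the control libraries with a replicate block, and those leaving out libraries for the counts against midgut, were added after seeing the data: the block raised the members called lower in hindgut than in midgut from 22 to 42. Those counts ran from 15 to 34 for hindgut and from 1 to 47 for Hoxd13 midgut without single libraries. The causes of these shifts were not tested. Counts near 1 CPM limit the members of lowest abundance.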
